A study of Saccharomyces cerevisiae with 24 samples.

Results

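The DNA damage checkpoint and its best known transcriptional target, ribonucleotide reductase, were described through 10 transcripts of Saccharomyces cerevisiae chosen by name. They are the kinase genes MEC1 (YBR136W), TEL1 (YBL088C), RAD53 (YPL153C) and DUN1 (YDL101C), the repressor gene RFX1 (YLR176C), the subunit genes RNR1 (YER070W), RNR2 (YJL026W), RNR3 (YIL066C) and RNR4 (YGR180C), and HUG1 (YML058W-A), out of 6713 transcripts quantified. All 10 passed the filter on low counts, which left 6400 transcripts for testing. RNA was sequenced from BY4742, a laboratory strain of the S288C background, and from YPS606, Y55 and UWOPS87_2421 (UWOP below). Each strain was grown in synthetic defined medium and harvested at an optical density of 0.4, and 3 libraries were made without caffeine and 3 after 4 hours in 20 mM caffeine. Nothing in the labels says whether the 3 libraries of a group came from separate cultures, so p-values measure the spread between these libraries only. Libraries are named here by the numbers in their titles, 25 to 48.

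Mec1 and Tel1 are the yeast relatives of the mammalian kinases ATR and ATM and start the checkpoint at stalled forks and broken ends. They act through the kinase Rad53, which activates the kinase Dun1. Signalling through this chain takes the repressor Rfx1, also called Crt1, off the promoters of RNR2, RNR3, RNR4 and HUG1, where it otherwise recruits the corepressor Tup1-Cyc8. Ribonucleotide reductase makes the deoxyribonucleotides for DNA synthesis, and caffeine is known as an inhibitor of Mec1 and Tel1 type kinases and of the related TOR kinase.

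The promoters of 3 members are shown whose transcripts moved with caffeine and whose windows held a match to either of a pair of motifs. These motifs are known from the control of RNR and G1/S genes. Each window runs from 250 bases before the coding start to 50 bases after it in the R64 reference of S288C, read 5′ to 3′ on the strand of the gene. The windows of the other strains were not read and may differ. Capitals mark matches to GTTGCC or its reverse complement GGCAAC, the core of the Rfx1 site, and to ACGCGT, the site of the G1/S factor MBF, which reads the same on both strands.
HUG1, chrXIII:158510-158809, plus strand: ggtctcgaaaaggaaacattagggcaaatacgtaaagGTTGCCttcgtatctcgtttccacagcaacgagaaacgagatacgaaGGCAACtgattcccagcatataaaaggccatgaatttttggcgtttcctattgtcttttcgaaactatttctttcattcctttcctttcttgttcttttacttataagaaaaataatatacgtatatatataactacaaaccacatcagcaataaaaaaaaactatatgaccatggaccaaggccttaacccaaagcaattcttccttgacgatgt
RNR3, chrIX:240659-240958, minus strand: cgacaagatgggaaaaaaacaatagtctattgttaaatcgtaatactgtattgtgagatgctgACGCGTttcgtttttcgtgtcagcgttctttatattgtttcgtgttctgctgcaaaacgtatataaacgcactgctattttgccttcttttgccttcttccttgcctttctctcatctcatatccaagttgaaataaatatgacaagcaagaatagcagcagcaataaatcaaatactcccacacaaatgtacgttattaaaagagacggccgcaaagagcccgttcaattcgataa
RNR1, chrV:298700-298999, plus strand: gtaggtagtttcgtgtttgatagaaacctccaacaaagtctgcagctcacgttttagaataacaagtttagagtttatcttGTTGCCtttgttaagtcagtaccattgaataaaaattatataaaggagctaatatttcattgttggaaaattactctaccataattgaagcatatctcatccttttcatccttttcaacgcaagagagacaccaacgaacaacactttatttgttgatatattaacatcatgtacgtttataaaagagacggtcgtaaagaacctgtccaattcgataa

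The HUG1 window held GTTGCC 213 bases before the start and its reverse complement 166 bases before it, so that the matches face each other. RNR1 held 1 GTTGCC, 169 bases before the start, and RNR3 held 1 ACGCGT, 187 bases before it. DUN1 was the only other member with a match, an ACGCGT 163 bases before its start. The windows of RNR2, of RNR4 and of TEL1, which rose in caffeine in 3 strains, thus held neither word. Of 6007 promoter windows of this length, 7.56% held GTTGCC on either strand and 3.06% held ACGCGT. The sequences searched lie within 250 bases of the start, and sites farther upstream were not read. No other annotated gene overlapped the coding sequence of any of the 10 members.

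Depth ranged from 8714049 to 29524968 estimated counts per library, with a median of 21107258. BY4742 had at most 5 counts of URA3, LEU2 or LYS2 in each of its 6 libraries. HIS3, read as a further label check, was not low there, with 1693 to 4201 counts against 89 to 2101 in the other strains. The transcripts of the 2-micron plasmid (R0010W, R0020C, R0030W and R0040C) had at least 920 counts in every Y55 library and at most 34 elsewhere. These 4 transcripts were the only ones past the test between Y55 and UWOP in either medium (0.0625% of 6400), so agreement between those strains below is not independent evidence, and a count of strains includes both. URA3 also spread widely within them, from 10 to 2341 counts over the Y55 libraries and from 1 to 2114 over those of UWOP, against 13147 to 67845 in YPS606, and whether they are separate backgrounds as labelled was not tested. The low URA3 counts of Y55 and UWOP were those of libraries 27, 28, 31 and 32 (41, 1, 10 and 1), and their later libraries had 270 to 2341. Library 42 of YPS606, library 35 of Y55 and library 37 of BY4742 in caffeine each stood apart from both others of their group: comparing counts over transcripts, chi-square divided by its degrees of freedom was more than 3 times as large against them as between the other 2. Libraries in caffeine also had larger scaling factors, 0.969 to 1.26 against 0.863 to 0.961, and a smaller share of counts in their 100 highest transcripts, 29.2% to 36.9% against 36.8% to 41.8%. Scaling by library totals alone would therefore raise the median of all transcripts in caffeine by 0.40 (BY4742), 0.25 (YPS606), 0.12 (Y55) and 0.22 (UWOP) on the log2 scale, and directions below hold relative to the TMM scaling, with exceptions named. Levels below are in CPM, estimated counts divided by the TMM-scaled library size and brought to a fixed total, and log2 fold changes are from edgeR's quasi-likelihood test, given with their SE.

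**Figure D1:**
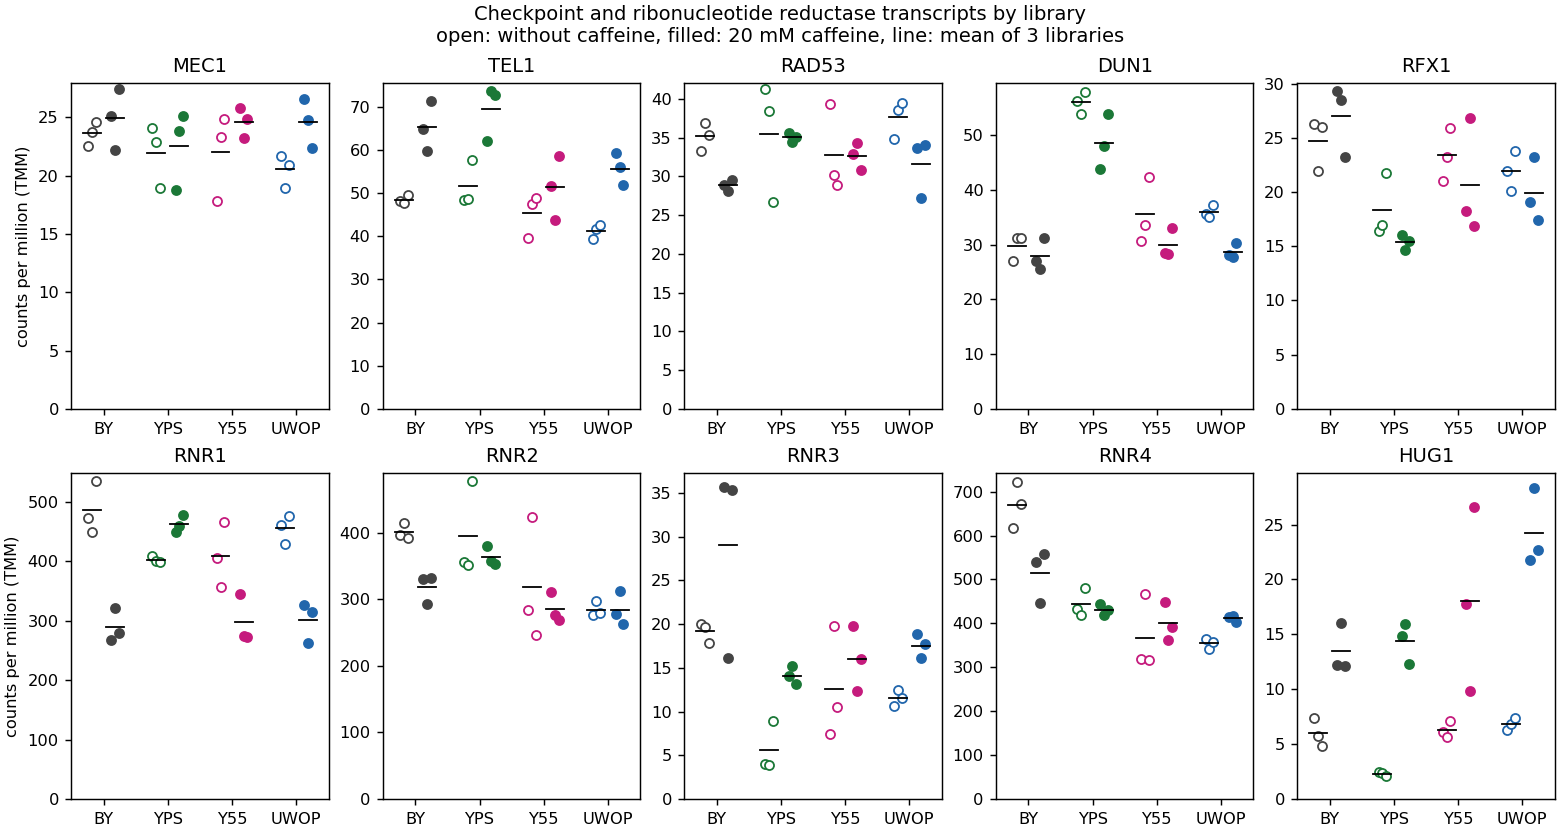
CPM (TMM-scaled) of the 10 transcripts in every library, on axes that start at 0, by strain (BY is BY4742, YPS is YPS606). Open points are the 3 libraries without caffeine, filled points the 3 in 20 mM caffeine, and lines their means. HUG1 is higher in caffeine in all 4 strains, whereas RNR1 is lower in 3 of them and not in YPS606.

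HUG1 rose in caffeine in all 4 strains, and it was the only member called in every strain. HUG1 encodes a small protein that binds and inhibits ribonucleotide reductase, and its transcript is a standard reporter of checkpoint activation. Among all transcripts tested, 4.98% were higher in caffeine in all 4 strains. In BY4742 the 3 libraries had 7.38, 5.74 and 4.85 CPM without caffeine and 12.2, 16.1 and 12.1 CPM in caffeine. In YPS606 they had 2.42, 2.41 and 2.07 CPM without caffeine and 14.8, 16.0 and 12.3 CPM in caffeine. The YPS606 libraries without caffeine were the lowest of all 24, and in caffeine they lay among those of BY4742. In Y55 the values were 6.10, 5.65 and 7.12 CPM without caffeine and 17.8, 9.82 and 26.6 CPM in caffeine. In UWOP they were 6.27, 6.82 and 7.33 CPM without caffeine and 21.7, 28.4 and 22.7 CPM in caffeine. Within each strain the libraries in caffeine all lay above those without it, as groups that did not overlap; over all transcripts this held, in either direction, for 63.2% in BY4742, 49.9% in YPS606, 22.7% in Y55 and 54.5% in UWOP.

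The fold was 2.23 in BY4742, 2.92 in Y55, 3.56 in UWOP and 6.23 in YPS606. The log2 fold changes were 1.16 ± 0.25, 1.55 ± 0.25, 1.83 ± 0.25 and 2.64 ± 0.27 in that order (SE, n = 3 against 3; edgeR adjusted p = 0.000619, 0.000355, 2.77e-05 and 3.37e-07). Fitted on the 6 Y55 libraries alone, the Y55 rise did not pass (1.53, adjusted p = 0.0839), and its 3 libraries in caffeine spread the most. The 4 responses differed from each other (adjusted p = 0.0235 over 3 coefficients, a test that called 26.4% of all transcripts). The YPS606 response exceeded that of BY4742 by 1.48 ± 0.36 on the log2 scale (adjusted p = 0.00986), in a comparison that called 12.8% of all transcripts. Its excess over the responses of Y55 and UWOP was 1.09 and 0.81 and did not pass (adjusted p = 0.0913 and 0.242). The strains entered caffeine from different levels: without it, HUG1 was lower in YPS606 than in BY4742 by 1.38 ± 0.27 on the log2 scale (adjusted p = 0.000358). In caffeine that difference was 0.10 (adjusted p = 0.762), while UWOP was higher than BY4742 by 0.85 ± 0.24 (adjusted p = 0.00513). HUG1 counts were low, 40 to 63 per YPS606 library without caffeine, and its transcript has 207 bases, so its values carry more counting error than those of the subunit genes.

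RNR1, the large subunit used in every S phase, fell in caffeine in 3 strains and not in YPS606. The BY4742 libraries had 472, 449.9 and 535 CPM without caffeine and 267, 321 and 280 CPM in caffeine. The UWOP libraries went from 461, 429 and 476 CPM to 326, 263 and 314 CPM. The Y55 libraries went from 405, 356 and 467 CPM to 345, 275 and 273 CPM. In these strains no library in caffeine reached the level of those without it. The YPS606 libraries had 409, 401 and 399 CPM without caffeine and 449.9, 459 and 477 CPM in caffeine, so here all 3 libraries in caffeine were the higher ones.

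The log2 fold changes of RNR1 were −0.75 ± 0.12 in BY4742 (edgeR adjusted p = 2.32e-05), −0.60 ± 0.12 in UWOP (0.000841), −0.46 ± 0.12 in Y55 (0.0112) and 0.20 ± 0.12 in YPS606 (0.183). The Y55 value did not pass without its library 47 in caffeine (adjusted p = 0.0659) or when only the Y55 libraries were fitted (0.191). Scaling by library totals alone kept the direction in all 4 strains, with −0.36 in BY4742 (adjusted p = 0.0108) and, past the test, 0.46 in YPS606 (0.00281). The 4 responses differed (adjusted p = 0.00125 over 3 coefficients). The YPS606 response exceeded that of BY4742 by 0.95 ± 0.16, that of UWOP by 0.80 ± 0.16 and that of Y55 by 0.66 ± 0.16 on the log2 scale (adjusted p = 0.000778, 0.00743 and 0.0215), comparisons that called 12.8%, 4.03% and 5.14% of all transcripts. In caffeine RNR1 was thus higher in YPS606 than in BY4742 by 0.68 ± 0.12 (adjusted p = 7.83e-05), whereas without caffeine the difference was −0.27 ± 0.12 (0.0721) and passed with DESeq2 (−0.32, 0.02).

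RNR3, the large subunit isoform that is nearly silent until damage, had 20.0, 19.7 and 17.9 CPM in BY4742 without caffeine and 35.7, 16.2 and 35.3 CPM in caffeine. The low value in caffeine was that of library 37, which stood apart. YPS606 had 4.00, 3.85 and 8.93 CPM without caffeine, the high value being library 42, and 14.0, 15.2 and 13.1 CPM in caffeine. Y55 had 7.42, 19.8 and 10.5 CPM without caffeine, the high value being library 35, and 19.8, 12.3 and 16.1 CPM in caffeine. UWOP had 10.6, 12.5 and 11.5 CPM without caffeine and 18.9, 16.1 and 17.7 CPM in caffeine. The groups did not overlap in YPS606 and UWOP, and they overlapped in BY4742 and Y55 only through the libraries that stood apart.

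With all libraries, RNR3 rose in YPS606, by 1.33 ± 0.34 on the log2 scale (edgeR adjusted p = 0.00414), and did not pass in BY4742 (0.60 ± 0.32, 0.125), UWOP (0.61 ± 0.33, 0.184) or Y55 (0.36 ± 0.33, 0.515). Without libraries 35, 37 and 42, an alternative chosen after these values were seen, it passed in all 4 strains: 1.84 in YPS606 (adjusted p = 2.12e-07), 0.89 in Y55 (0.00124), 0.88 in BY4742 (7.06e-05) and 0.61 in UWOP (0.00269). In that fit 52.7%, 27.1%, 60.8% and 41.5% of all transcripts were called in the same order. In the groups of libraries 35, 37 and 42, the spread of RNR3 lay mainly in these libraries. Leaving out libraries unlike the others of their group lowers the spread, and the fit shares that spread over all groups. No UWOP library was left out: its change stayed at 0.61, while its SE went from 0.33 to 0.14. Between strains, RNR3 was lower in YPS606 than in BY4742 without caffeine by 1.78 ± 0.34 (adjusted p = 0.000335), a fold of 3.43. The Y55 and UWOP differences from BY4742 without caffeine were −0.60 and −0.73 and did not pass (0.175 and 0.0917). Without the 3 libraries both passed, at −1.13 and −0.74 (4e-05 and 0.000399). In caffeine RNR3 was lower than in BY4742 by 1.05 ± 0.33 in YPS606 (0.0124) and by 0.85 ± 0.33 in Y55 (0.0307). The UWOP difference in caffeine was −0.73 and did not pass (adjusted p = 0.0624), but it passed in 11 of 31 alternatives. The YPS606 difference in caffeine did not pass without library 29 or 45 of BY4742 in caffeine (adjusted p = 0.0607 and 0.0578). The Y55 difference did not pass without library 29 or 45 of BY4742 in caffeine or library 39 or 47 of Y55 in caffeine (0.123, 0.118, 0.112 and 0.0682). The difference between the YPS606 and BY4742 responses was 0.73 and did not pass (adjusted p = 0.322). Without the 3 libraries it was 0.96 (0.00557).

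**Figure D2:**
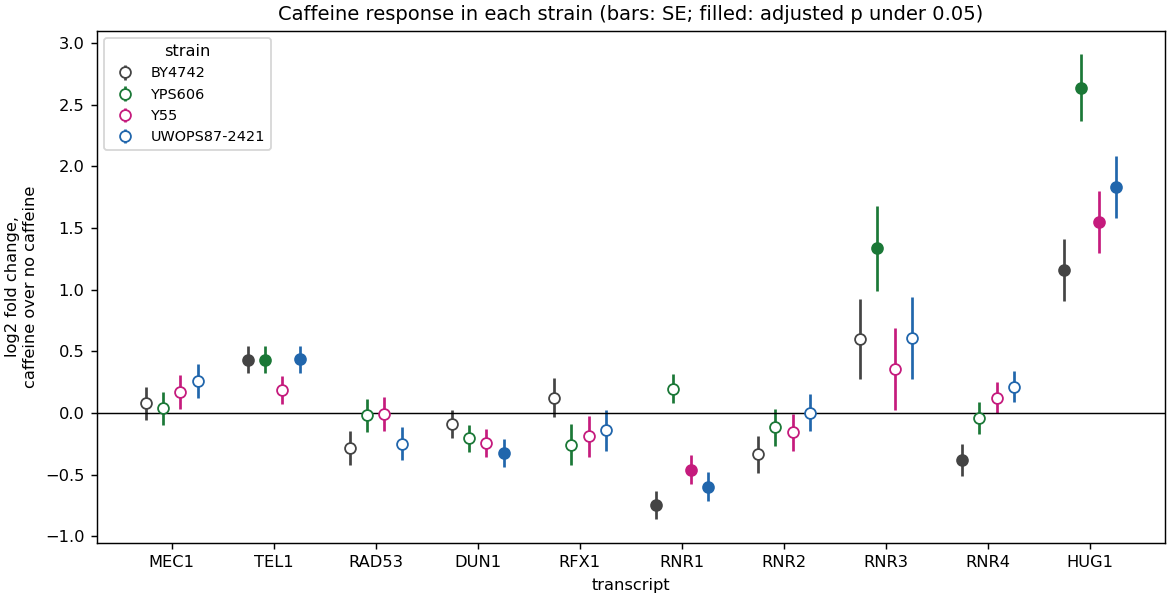
Log2 fold change in caffeine over no caffeine for each transcript in each strain, with SE bars; filled points have an edgeR adjusted p under 0.05. HUG1 is above 0 and filled in all 4 strains, and RNR1 is below 0 and filled in BY4742, Y55 and UWOP. The point of RNR4 in BY4742 moves from −0.38 to 0.02 when libraries are scaled by their totals alone.

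The small subunit is built from the products of RNR2 and RNR4. RNR4 had 618, 722 and 671 CPM in BY4742 without caffeine and 540, 446 and 559 CPM in caffeine. In YPS606 it had 433, 418 and 479.7 CPM without caffeine and 443, 418 and 431 CPM in caffeine. In Y55 it had 318, 467 and 317 CPM without caffeine, the high value again being library 35, and 447, 363 and 391 CPM in caffeine. In UWOP it had 365, 341 and 357 CPM without caffeine and 415, 416 and 404 CPM in caffeine. RNR4 thus stood highest in BY4742 without caffeine, and there the other 3 strains were lower by 0.92 ± 0.13 (UWOP, edgeR adjusted p = 8.47e-06), 0.87 ± 0.13 (Y55, 1.74e-05) and 0.60 ± 0.13 (YPS606, 0.000875) on the log2 scale.

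RNR4 fell in BY4742 in caffeine by 0.38 ± 0.13 on the log2 scale relative to the TMM scaling (edgeR adjusted p = 0.0168), but with library totals alone the change was 0.02 (0.894), and without library 33, 41 or 37 it did not pass (0.104, 0.0589 and 0.0783). In the other strains the log2 changes were −0.04 in YPS606, 0.13 in Y55 and 0.21 in UWOP, and none passed (adjusted p = 0.83, 0.554 and 0.225). Without the 3 libraries that stood apart, RNR4 rose in Y55 by 0.34 and in UWOP by 0.21 (adjusted p = 0.00751 and 0.0298). In BY4742 it fell by 0.29 in that fit (0.0066). The test of any difference among the 4 caffeine responses did not call RNR4. In single comparisons, the responses of UWOP and Y55 exceeded that of BY4742 by 0.59 ± 0.18 and 0.51 ± 0.18 (adjusted p = 0.0236 and 0.0406). These comparisons called 22.2% and 29.1% of all transcripts. These differences were fragile: the first did not pass without library 28, 33, 36, 41 or 44 (adjusted p = 0.0521 to 0.0842) or with library totals alone (0.41, 0.0995). The second did not pass without any 1 of libraries 25, 26, 27, 28, 29, 31, 33, 34, 36, 37, 41, 43 and 44, when only the groups compared were fitted (adjusted p = 0.184), or with library totals alone (0.24, 0.313). Without the 3 libraries that stood apart both passed, at 0.50 for UWOP and 0.63 for Y55 (adjusted p = 0.00181 and 0.000465). In caffeine RNR4 remained lower than in BY4742 by 0.36 ± 0.13 in Y55 (0.0198) and 0.32 ± 0.13 in UWOP (0.0374). The Y55 value did not pass without library 29, 39, 45 or 47 and the UWOP value not without library 29, 32, 40, 45 or 48, and neither passed with only the groups compared (0.0898 and 0.0609). RNR4 in YPS606 in caffeine was lower by 0.26 ± 0.13 (0.106).

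RNR2 did not pass in any caffeine comparison with all libraries, with log2 changes of −0.34 in BY4742 (edgeR adjusted p = 0.0669), −0.12 in YPS606, −0.16 in Y55 and 0.00 in UWOP. BY4742 had 397, 416 and 393 CPM without caffeine and 331, 293 and 332 CPM in caffeine, which did not overlap. The same sign was kept in BY4742 without the 3 libraries that stood apart (−0.28, adjusted p = 0.00969), and it turned with library totals alone (0.06, 0.736). Without those 3 libraries the sign turned in YPS606 and Y55, at 0.04 and 0.11, and neither passed (0.713 and 0.395). The Y55 response then exceeded that of BY4742 by 0.39 (0.0181), against 0.18 with all libraries (0.567). UWOP, with 276, 297 and 279 CPM without caffeine, was lower than BY4742 by 0.50 ± 0.15 (adjusted p = 0.0125). In Y55 library 35 had 424 CPM against 284 and 246 CPM in libraries 27 and 43. Without the 3 libraries that stood apart, Y55 was lower than BY4742 by 0.60 without caffeine (adjusted p = 2.16e-05), a difference of −0.34 with all libraries (0.091). The estimated counts of RNR2 were not whole in 23 of 24 libraries, by at most 0.5 counts, and those of RNR1 and RNR3 were off a whole number by at most 0.041 counts.

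Levels of different subunits were set side by side only per length, in the deposited TPM values (counts divided by effective length and brought to a fixed total), as ratios within a library. RNR3 made up 3.77% ± 0.51 of the TPM of RNR1 and RNR3 together in BY4742, 2.46% ± 0.30 in UWOP, 3.07% ± 1.90 in Y55 and 1.35% ± 0.71 in YPS606 without caffeine (SD, n = 3). In caffeine the share was 9.18% ± 3.86, 5.48% ± 0.20, 5.04% ± 0.71 and 2.93% ± 0.26 in the same order. Some of these values spread widely because of the libraries that stood apart: library 37 had 4.74% against 11.7% and 11.1% in libraries 29 and 45, and library 35 had 5.25% against 1.78% and 2.18% in libraries 27 and 43. RNR1 therefore remained the main large subunit transcript in every library, and the highest share of RNR3, 11.7%, was in library 29 of BY4742 in caffeine. RNR4 TPM divided by RNR2 TPM was 2.04 ± 0.13 in BY4742 without caffeine and 1.98 ± 0.10 in caffeine, above 1.39 ± 0.14 and 1.46 ± 0.03 in YPS606. It was 1.43 ± 0.11 and 1.73 ± 0.10 in Y55, and 1.53 ± 0.11 and 1.77 ± 0.13 in UWOP. With 3 libraries against 3, an exact permutation test of these ratios cannot give a 2-sided p below 0.1, and none was run.

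**Figure D3:**
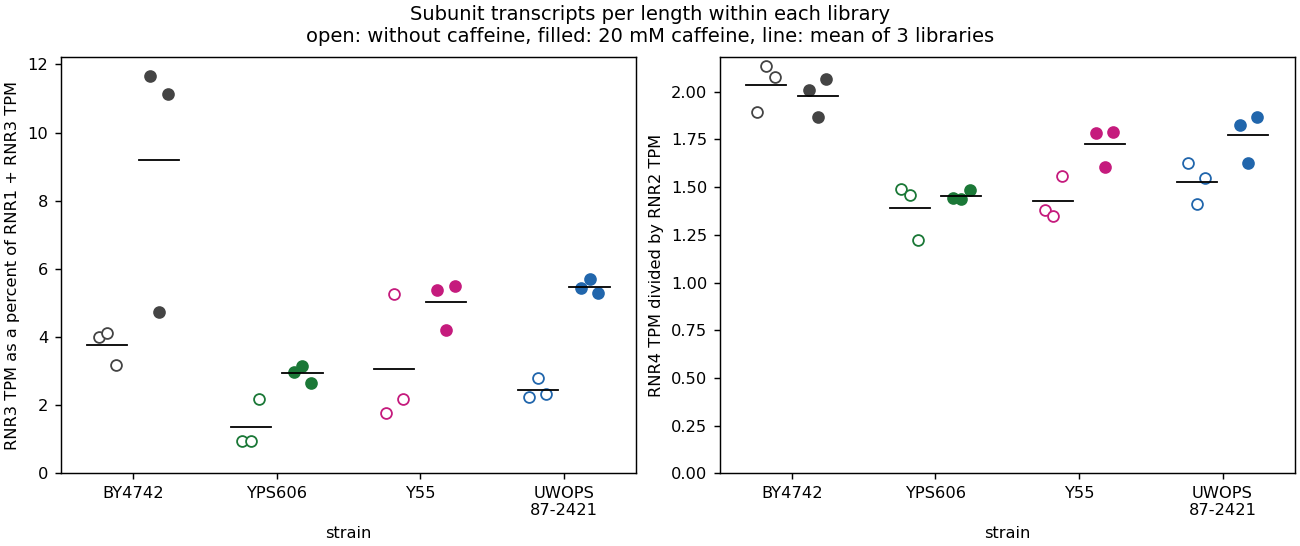
Within each library, RNR3 TPM as a percent of RNR1 plus RNR3 TPM (left) and RNR4 TPM divided by RNR2 TPM (right), by strain, on axes that start at 0. Open points are without caffeine, filled points in 20 mM caffeine, and lines are means of 3 libraries. The RNR3 share is highest in 2 of the 3 BY4742 libraries in caffeine, at 11.7% and 11.1%, and the mean of the RNR4 ratio is highest in BY4742 in both media (2.04 and 1.98).

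Among the kinases, TEL1 rose in caffeine in BY4742, YPS606 and UWOP, each time by 0.43 ± 0.11 on the log2 scale (edgeR adjusted p = 0.00263, 0.00402 and 0.00667), a fold of 1.35. The BY4742 libraries went from 48.2, 47.6 and 49.6 CPM to 64.9, 59.9 and 71.4 CPM, and those of UWOP from 39.4, 41.6 and 42.7 CPM to 59.3, 55.9 and 51.8 CPM. YPS606 went from 48.4, 48.6 and 57.6 CPM to 62.1, 73.8 and 72.7 CPM, again with no overlap. In Y55 the values went from 39.5, 47.5 and 48.9 CPM to 51.7, 43.7 and 58.5 CPM, which overlapped (0.19 ± 0.11, 0.286). The Y55 response differed from that of BY4742 by −0.25 and this was not past the test (adjusted p = 0.251). In caffeine TEL1 was lower in Y55 than in BY4742 by 0.35 ± 0.11 (0.0108), which did not pass without library 39 of Y55 or 45 of BY4742 in caffeine (0.0722 and 0.061) or with only the groups compared (0.0623). The TEL1 difference of UWOP from BY4742 in caffeine was −0.23 and did not pass (adjusted p = 0.0795), but it passed in 16 of 31 alternatives.

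MEC1 and RAD53 passed in none of the 13 comparisons of caffeine, of strain with BY4742 or of response with that of BY4742. MEC1, the apical kinase, had group means between 20.5 and 24.9 CPM, with caffeine changes of 0.04 to 0.26 on the log2 scale (adjusted p = 0.16 to 0.855). RAD53 had 33.3, 36.9 and 35.4 CPM in BY4742 without caffeine and 28.9, 28.2 and 29.5 CPM in caffeine, which did not overlap, with a log2 change of −0.29 ± 0.14 (adjusted p = 0.0835). It passed in 2 of 31 alternatives, when only the BY4742 libraries were fitted (−0.28, 0.0256) and without library 42 of YPS606 (−0.29, 0.0282). With library totals alone MEC1 passed in BY4742 and UWOP (0.48 in each, 0.00587 and 0.0129). The RAD53 change was −0.25 to −0.01 in the other strains. By library totals RAD53 turned to 0.11 in BY4742 (adjusted p = 0.479). It was 0.25 in YPS606, 0.12 in Y55 and −0.03 in UWOP under that scaling, and none passed. The transcript levels of the kinases say nothing of their activity, which was not measured.

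DUN1, whose product marks the reductase inhibitor Sml1 for destruction, separated the strains rather than the media. YPS606 had 56.3, 54.0 and 57.9 CPM without caffeine, against 27.1, 31.2 and 31.2 CPM in BY4742, 30.6, 33.7 and 42.5 CPM in Y55 and 35.7, 35.0 and 37.3 CPM in UWOP. No library of another strain reached those of YPS606. The log2 difference of YPS606 was 0.91 ± 0.11 from BY4742, 0.66 ± 0.11 from Y55 and 0.64 ± 0.11 from UWOP (edgeR adjusted p = 1.83e-06, 0.000257 and 0.000303). In caffeine YPS606 had 43.8, 48.1 and 53.9 CPM and the differences were 0.80, 0.70 and 0.76 (8.4e-06, 0.000102 and 4.53e-05). All other strains in caffeine had 25.5 to 33.0 CPM. In caffeine DUN1 fell in UWOP by 0.32 ± 0.11 (0.0393), which did not pass with library totals alone (−0.11, 0.558), with the other size factors tried (−0.30, 0.051), or without any 1 of the 6 libraries 28, 32, 36, 40, 44 and 48 of that strain (0.0537 to 0.105).

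RFX1, the repressor, did not change with caffeine in any strain by the test, with log2 changes of −0.26 to 0.13 (edgeR adjusted p = 0.226 to 0.555), although with library totals alone it passed in BY4742 (0.52, 0.0113). It was lower in YPS606 than in BY4742, at 16.4, 17.0 and 21.8 CPM against 26.3, 21.9 and 26.0 CPM without caffeine and at 16.0, 14.6 and 15.5 CPM against 29.3, 28.5 and 23.2 CPM in caffeine. The difference was −0.81 ± 0.16 in caffeine (0.000397) and −0.43 ± 0.16 without it (0.0434), and the latter did not pass without library 25, 26, 30, 32, 34, 38, 41 or 46. In caffeine RFX1 was also lower than in BY4742 in UWOP (−0.44 ± 0.16, 0.0275) and Y55 (−0.40 ± 0.16, 0.0418), with overlapping libraries. The first did not pass without library 29, 32, 37 or 48 and the second not without library 29, 31, 37 or 47, without the 3 libraries that stood apart (adjusted p = 0.0671) or with only the groups compared (0.0965), and it was at 0.05 without library 46. Of the 5 members called between YPS606 and BY4742 without caffeine, HUG1, RNR3 and RFX1 thus had their lowest mean of the 4 strains in YPS606. DUN1 had its highest mean there, whereas RNR4 was lower in Y55 and UWOP. RNR1, which was not called, also had its lowest mean in YPS606 in that medium.

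**Figure D4:**
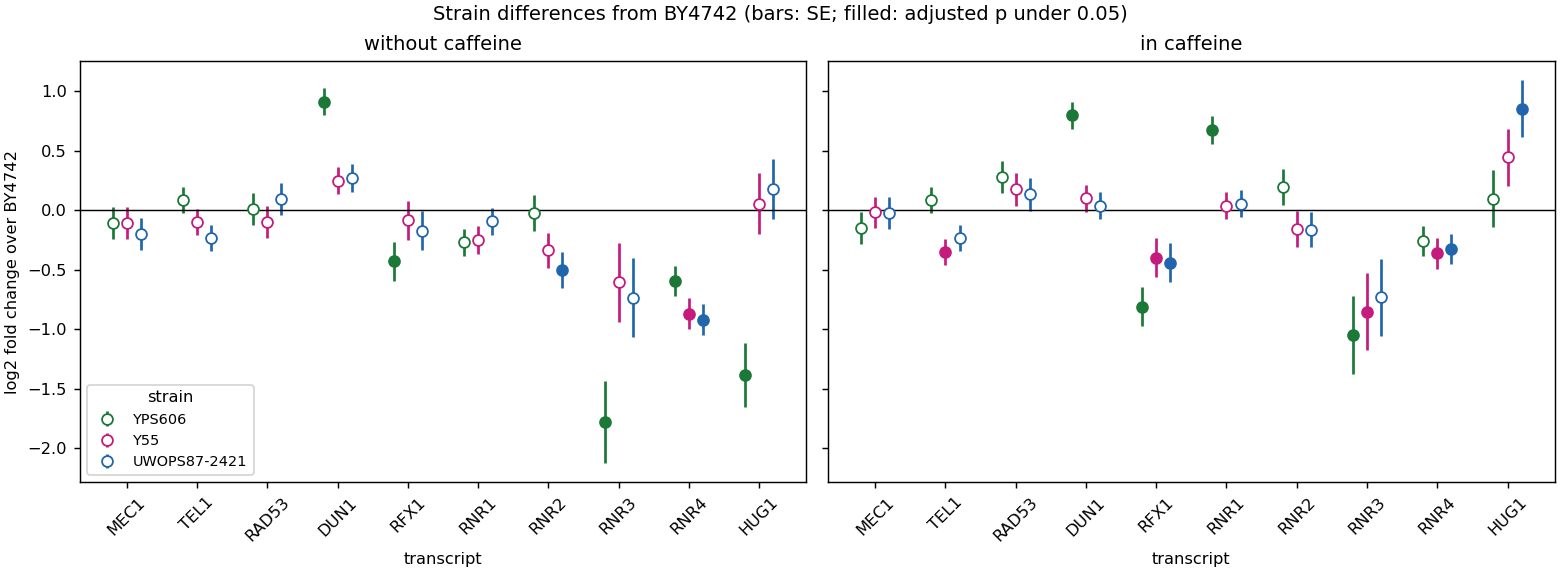
Log2 fold change of YPS606, Y55 and UWOP over BY4742, without caffeine (left) and in caffeine (right), with SE bars; filled points have an edgeR adjusted p under 0.05. Without caffeine RNR4 is below 0 and filled in all 3 strains, and DUN1 in YPS606 is above 0 and filled in both media (0.91 and 0.80).

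Counted together, the members passed the test of caffeine against no caffeine about as often as transcripts in general. In the comparisons of Y55 and UWOP with BY4742 the share of members that passed was lower than that of all transcripts. In caffeine, 2 rose and 2 fell in BY4742, 3 rose and 0 fell in YPS606, 1 rose and 1 fell in Y55, and 2 rose and 2 fell in UWOP, out of 10 each. Over all transcripts the test called 52.5% in BY4742 (27.5% higher, 25% lower), 40.5% in YPS606 (20.5% and 20%), 14.4% in Y55 (8.64% and 5.77%) and 27.7% in UWOP (14.7% and 13%), and 2.72% were lower in all 4 strains. The median log2 change of the members was −0.01, 0.01, 0.06 and 0.11 in the same order, beside medians of −0.01 to 0.03 for all transcripts. Scaled by library totals alone, 5 members rose and 1 fell in BY4742, 4 rose in YPS606, 1 rose and 1 fell in Y55, and 4 rose and 1 fell in UWOP. That scaling raised transcripts in general: of all those called, 84.4%, 84.4%, 85% and 86% were higher, in the same order. Without caffeine, 5 members differed between YPS606 and BY4742 (1 higher, 4 lower), 1 in Y55 and 2 in UWOP (all lower), where the test called 38.1% (21% higher, 17.1% lower), 33.9% (20% and 13.9%) and 36.6% (20.8% and 15.8%) of transcripts. In caffeine the counts were 4 (2 higher, 2 lower), 4 (all lower) and 3 (1 higher, 2 lower), against 46.5% (24.5% higher, 22% lower), 59.1% (30.4% and 28.7%) and 54.5% (28.1% and 26.4%). Against Y55, 3 members differed in YPS606 in each medium, beside 19.6% and 28.1% of transcripts without and in caffeine, and against UWOP 5 and 4 differed, beside 26.5% and 23.9%. The caffeine response differed from that of BY4742 for 2 members in YPS606 and 1 each in Y55 and UWOP, beside 12.8%, 29.1% and 22.2% of transcripts. Without the 3 libraries that stood apart, 6, 3, 4 and 6 members passed in caffeine in the order of the strains above, beside 60.8%, 52.7%, 27.1% and 41.5% of transcripts.

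Of 13 regulators of ribonucleotide reductase, 3 rose and 4 fell in caffeine in BY4742, 3 rose and 3 fell in YPS606, 0 passed in Y55 and 2 fell in UWOP, where the test called 52.5%, 40.5%, 14.4% and 27.7% of all transcripts. By library totals alone, 7 rose and 1 fell in BY4742, 5 rose and 1 fell in YPS606, 0 passed in Y55 and 1 rose in UWOP. Of all transcripts called under that scaling, 84.4% to 86% were higher. The medians relative to the TMM scaling were 0.10, 0.16, 0.01 and −0.12 in the order BY4742, YPS606, Y55 and UWOP. CYC8 and TUP1, which encode the corepressor that Rfx1 recruits, fell in BY4742 (log2 −0.73 and −0.60) and YPS606 (−0.88 and −0.50), and had −0.29 and −0.08 in Y55 and −0.28 and −0.17 in UWOP, which did not pass (edgeR adjusted p = 0.109 to 0.72). With library totals alone TUP1 did not pass in BY4742 (−0.21, 0.119) or YPS606 (−0.25, 0.0842), while CYC8 passed in both (−0.34 and −0.62). ROX1, a repressor of hypoxic genes also placed at RNR promoters, rose by 1.20 in BY4742 and 1.49 in YPS606. IXR1, an activator of RNR1, rose in BY4742 (0.69) and NRM1, a corepressor of MBF targets, fell there (−0.67, and −0.27 with adjusted p = 0.0648 by library totals). SWI6, the shared subunit of the G1/S factors, fell in BY4742, YPS606 and UWOP (−0.30, −0.34 and −0.23), but by library totals none of these passed, at 0.10, −0.08 and −0.02 (adjusted p = 0.301, 0.427 and 0.901). MOT3 fell in UWOP (−0.43, and −0.21 with adjusted p = 0.323 by library totals). SML1, the inhibitor of Rnr1, and DIF1, which brings the small subunit into the nucleus, rose in YPS606 alone among the calls (0.31 and 0.55, adjusted p = 0.0394 and 0.00902), and had log2 values of −0.30 to −0.07 and −0.12 to 0.28 elsewhere. The SML1 response of YPS606 exceeded those of Y55 and UWOP by 0.59 and 0.61 (adjusted p = 0.0371 and 0.0385) and that of BY4742 by 0.38, which did not pass (0.129). CRT10, a regulator of RNR genes, and MBP1, the DNA-binding subunit of MBF, passed in no caffeine comparison. CRT10 was lower than in BY4742 without caffeine by 0.27 in YPS606, 0.43 in Y55 and 0.33 in UWOP.

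S phase genes, which like RNR1 peak as cells enter the cell cycle, fell in BY4742 in 11 of 15 cases and rose in 1, with a median log2 change of −0.47 beside 0.03 for all transcripts, of which 25% fell and 27.5% rose. In UWOP, 8 fell and 1 rose, in YPS606 3 fell and 2 rose, and in Y55 2 fell, with medians of −0.38, −0.15 and −0.12, beside 13%, 20% and 5.77% of all transcripts lower and 14.7%, 20.5% and 8.64% higher. With library totals alone the counts were 5 lower and 3 higher in BY4742, 3 and 2 in UWOP, 1 and 3 in YPS606 and 2 and 0 in Y55, and the median of YPS606 turned to 0.12. Among all transcripts called that way, 84.4% to 86% were higher. POL30, the sliding clamp, fell in all 4 strains, by 1.48 in BY4742, 0.33 in YPS606, 0.47 in Y55 and 0.65 in UWOP, although by library totals the YPS606 value did not pass (−0.06, adjusted p = 0.621). TOS4, a G1/S target gene, also fell in all 4, by 1.04, 0.53, 0.47 and 0.67 in that order. CDC6, a licensing factor, fell by 1.24 in BY4742 and 1.06 in UWOP, and the S phase cyclin gene CLB5 by 1.03 and 0.83, the latter not past the test by library totals (−0.61, 0.0562). PRI2, a primase subunit, rose by 0.29 in BY4742 and 0.44 in YPS606. RFA2 rose in YPS606 (0.25) and POL2 in UWOP (0.35). RNR1 moved in the same direction as most of the called S phase genes in BY4742 and UWOP, and the part of cell cycle stage in its change was not tested. The S phase response was higher than that of BY4742 for 6 of 15 genes in YPS606, 5 in Y55 and 4 in UWOP and lower for 0. These comparisons share the BY4742 libraries, and they called 12.8%, 29.1% and 22.2% of all transcripts in either direction, in the same order.

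Among the genes of nucleotide supply and thiol donors, 6 of 10 fell in BY4742 and 1 rose, 3 fell and 2 rose in YPS606, 2 fell in Y55, and 4 fell and 1 rose in UWOP. Over all transcripts 25%, 20%, 5.77% and 13% fell and 27.5%, 20.5%, 8.64% and 14.7% rose in the same order. The medians were −0.54, 0.03, −0.08 and −0.26 in that order. By library totals alone, 4 fell and 2 rose in BY4742, 1 fell and 5 rose in YPS606, 1 fell in Y55, and 1 fell and 1 rose in UWOP. Of all transcripts called with these totals, 84.4% to 86% were higher. TRX1, a thioredoxin that reduces the reductase, fell by 1.18 in BY4742, 0.61 in YPS606 and 0.54 in UWOP, and the glutaredoxin gene GRX2 by 1.02 in BY4742, 0.53 in YPS606 and 0.75 in Y55, of which the YPS606 value did not pass by library totals (−0.27, adjusted p = 0.244). Its relative GRX1 rose in BY4742 (0.83) and UWOP (0.55). In YPS606 CDC21, thymidylate synthase, rose by 0.45 and TRR1, thioredoxin reductase, by 0.43. YNK1, the nucleoside diphosphate kinase, fell by 0.34 in Y55 and 0.40 in UWOP, and neither passed by library totals (−0.21 and −0.18, adjusted p = 0.228 and 0.232).

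Of 10 DNA repair genes known to be induced by damage, 4 rose and 2 fell in BY4742, 2 rose in YPS606, 1 rose in Y55, and 2 rose and 1 fell in UWOP, with medians of 0.11, 0.21, 0.02 and −0.07. The shares of all transcripts called were 52.5%, 40.5%, 14.4% and 27.7% in that order. By library totals alone, 5, 5, 1 and 4 rose in the same order of strains and 0 fell, where 84.4% to 86% of all called transcripts were higher. RAD7, a nucleotide excision repair factor, rose in all 4 strains, by 1.23 ± 0.16 in BY4742, 1.74 ± 0.16 in YPS606, 0.72 ± 0.16 in Y55 and 0.91 ± 0.16 in UWOP (edgeR adjusted p = 2.27e-06, 7.46e-08, 0.00394 and 0.000281). PHR1, the photolyase, rose in BY4742 (0.99) and UWOP (1.20) and RAD2, another excision repair factor, in BY4742 and YPS606 (0.58 and 0.51). PLM2 and RAD23 fell in BY4742 (−0.55 and −0.33), although by library totals neither passed (−0.15 and 0.07, adjusted p = 0.438 and 0.679).

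Of 15 other checkpoint sensors, mediators and kinases, 2 rose and 1 fell in BY4742, 2 rose in YPS606, 0 passed in Y55 and 3 fell in UWOP, with medians between −0.10 and −0.05, beside 52.5%, 40.5%, 14.4% and 27.7% of all transcripts called in the order of strains. Scaled by library totals alone, 8 rose in BY4742 and 4 in YPS606, 0 passed in Y55, and 1 rose and 1 fell in UWOP. Under that scaling 84.4% to 86% of all called transcripts were higher. Without the 3 libraries that stood apart, 3, 5, 3 and 5 fell and 2, 2, 0 and 0 rose in the order of strains. MEC3, a clamp subunit, rose in BY4742 and YPS606 (0.37 and 0.33), TTI1 in BY4742 (0.46) and CSM3 in YPS606 (0.39). TEL2, whose product keeps Mec1 and Tel1 stable, fell in UWOP (−0.45) and in BY4742 (−0.30), and by library totals neither passed (−0.23 and 0.10, adjusted p = 0.081 and 0.411). PDS1, securin, fell in UWOP (−0.54).

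**Figure D5:**
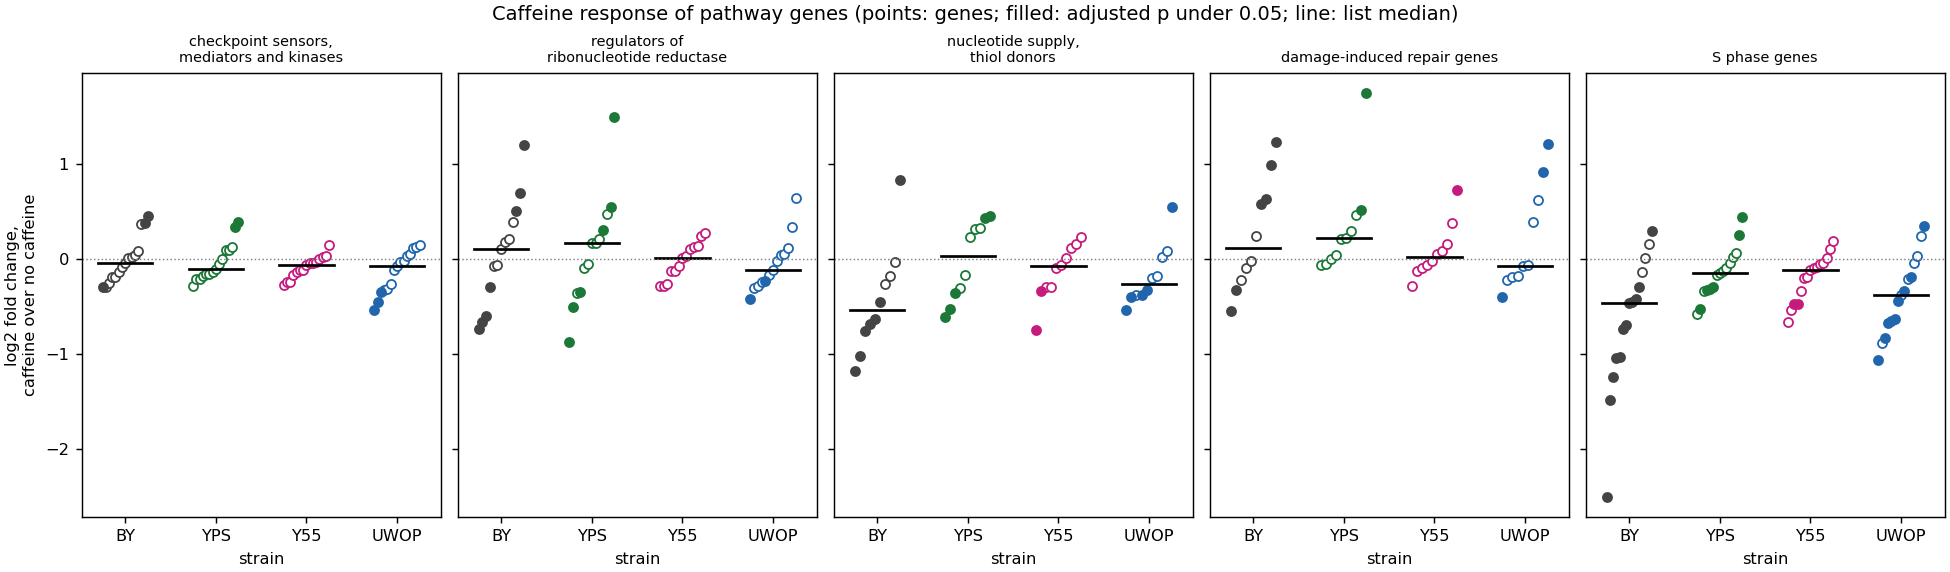
Log2 fold change in caffeine over no caffeine for each gene of 5 pathway lists in each strain (BY is BY4742, YPS is YPS606); filled points have an edgeR adjusted p under 0.05 and lines are list medians. In the S phase list of BY4742 11 of 15 genes are filled below 0 relative to the TMM scaling, against 5 of 15 with library totals alone.

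Over the 24 libraries, the transcripts with log2 CPM most like those of HUG1 among 5396 compared were HOT13 (Pearson r = 0.93), GDE1 (0.92) and ATG23 (0.91). For RNR3 they were COS10 (0.94), PHO8 (0.92) and OYE2 (0.91), and for RNR2 GAD1 (0.96), XKS1 (0.92) and SOL4 (0.90). For RNR4 they were YFL002W-A and YGR161W-B (0.91 each) and DOT6 (0.91). The r values of RNR1 were lower, with SPC29 (0.83), ACM1 (0.83) and YIF1 (0.79). Between members r was 0.71 for RNR2 and RNR4, 0.62 for RNR3 and HUG1 and −0.37 for RNR1 and RNR3. These r values run over libraries that share strain and medium, and they are descriptions without a test.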

How the data were processed

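RNA was sequenced from 24 libraries in 8 groups of 3, on an Illumina NextSeq 500 with a TruSeq Stranded mRNA kit. The authors trimmed the reads with Trimmomatic 0.36 and pseudo-aligned them with kallisto 0.44.0 to the transcripts of the S288C reference (R64) with sequence bias correction, and deposited estimated counts, effective lengths and TPM values per transcript. The deposited estimated counts were rounded and tested. The deposited TPM values, estimated counts per effective length scaled to a fixed total, were used only for ratios between subunits. The use of strand in counting is not given in the sources used here. Reads of strains that differ from the reference may align less well, which was not tested and bears on comparisons between strains. The authors also deposited 6 tables of DESeq2 comparisons, holding mean normalized counts, fold changes, standard errors and p-values, which were not used.

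The quasi-likelihood test of edgeR 4.0.16 in R 4.3.3 used 1 model holding all 24 libraries and 8 group coefficients, TMM factors and edgeR's filter on low counts, with Benjamini-Hochberg adjustment over 6400 transcripts within each comparison and a threshold of 0.05. The SE is the log2 fold change divided by the square root of F. Log2 CPM for correlations used a prior count of 2. Alternatives were DESeq2 1.42.0, RLE factors, no filter, length offsets, only the groups compared, each library left out, and, chosen after seeing the data, library totals alone and leaving out the 3 libraries that stood apart. The fit was tested on simulated data. Members, gene lists and tests were chosen with earlier results of these data known. Genes named beside the members were, per list and caffeine comparison, at most 2 with the highest and 2 with the lowest log2 fold change among those past the test with a mean of at least 10 CPM, together with SML1, DIF1, IXR1, CRT10, TUP1, CYC8, MBP1, SWI6 and NRM1 and, per member of RNR1 to RNR4 and HUG1, the 3 transcripts with the highest r. The result of 1 gene that this rule names is not reported here.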

Additional observations from a re-analysis of the deposited data

Results flagged for a closer look

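For 3 members, caffeine responses differed between strains by tests of the difference itself, the interaction terms of edgeR's quasi-likelihood fit. The test of any difference among the 4 responses called 2 of 10 members, RNR1 and HUG1, beside 26.4% of all transcripts. RNR4 did not pass that test and passed only in single comparisons with BY4742. For RNR1 the 4 responses differed with F = 13 over 3 coefficients (adjusted p = 0.00125), and the YPS606 response exceeded that of BY4742 by 0.95, that of Y55 by 0.66 and that of UWOP by 0.80 on the log2 scale (adjusted p = 0.000778, 0.0215 and 0.00743). All 3 YPS606 libraries in caffeine were above all 3 without it, and in the other strains all 3 were below. The excess over BY4742 passed in all 31 alternatives (0.82 to 1.03).

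For HUG1 the 4 responses differed with F = 6.02 (adjusted p = 0.0235), and the YPS606 response exceeded that of BY4742 by 1.48 (0.00986), past the test in all 31 alternatives (1.29 to 1.62). For RNR4 the responses of Y55 and UWOP exceeded that of BY4742 by 0.51 and 0.59 (adjusted p = 0.0406 and 0.0236), past the test in 16 and 25 of 31 alternatives. Since Y55 and UWOP differed in 4 transcripts of 6400 only, these are not independent of each other.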

How the results depend on the processing

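No paired analysis was run. Libraries 25 to 32, 33 to 40 and 41 to 48 each hold every group once. The groups share no library numbers, and the labels do not say that consecutive numbers belong together, so no term for these runs was fitted. Of 130 member comparisons, 36 passed the test, and 22 of these passed in all 31 alternatives; length offsets and no filter changed none of the calls. DESeq2 called 3 members in Y55 and 4 in UWOP against BY4742 without caffeine (1 and 2 by edgeR) and 5 in UWOP against BY4742 in caffeine (3). With only the groups compared, 0 members were called in caffeine in Y55 (2), 6 in UWOP against BY4742 without caffeine (2), 1 in Y55 against BY4742 in caffeine (4) and 0 for the response of Y55 minus that of BY4742 (1). With library totals alone, 6 were called in UWOP against BY4742 in caffeine (3), 0 for its response minus that of BY4742 (1), and RNR4 in BY4742 turned to 0.0212 (adjusted p = 0.894). Without the 3 libraries that stood apart, 4 were called in caffeine in Y55, 3 in Y55 against BY4742 without caffeine, 6 in UWOP against BY4742 in caffeine and 2 for the response of Y55 minus that of BY4742. With library totals alone the share of higher among called transcripts was 84.4% to 86% in the 4 caffeine comparisons (50.5% to 60% with TMM), 30.9% to 34.8% between strains in caffeine (51.5% to 52.6%) and 20.3% to 30.9% for responses minus that of BY4742 (49.5% to 53.6%). Over all transcripts, caffeine calls were 117 in Y55 (922 with all groups) and 2796 in UWOP (1771) with only the groups compared, 568 and 483 in Y55 without library 31 or 47, and 1740 in Y55 and 2667 in UWOP without the 3 libraries. UWOP against BY4742 without caffeine gave 3628 (2343) with only the groups compared. The response of YPS606 minus that of BY4742 gave 536, 1293 and 523 (819) without library 30, 37 or 45 and 1853 without the 3 libraries, and that of UWOP 2506 (1418) without them. The causes were not tested. HUG1 had 40 to 847 counts per library and RNR3 64 to 1110.

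Leaving out 1 library at a time gave 3 to 6 members called in caffeine in BY4742, 3 in every case in YPS606, 1 to 2 in Y55 and 3 to 4 in UWOP. Against BY4742 without caffeine it gave 4 to 6 in YPS606, 1 to 3 in Y55 and 2 to 3 in UWOP, and in caffeine 3 to 5, 1 to 4 and 1 to 5. For the responses minus that of BY4742 it gave 2 in every case in YPS606 and 0 to 1 in Y55 and UWOP.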
